A study of Mus musculus with 9 samples.

Results

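The comparison set all 6 NB9464 tumors that received R788 with anti-PDL1, 3 of them also irradiated, as 1 group against the 3 tumors from vehicle-treated mice. These are all 9 of the 9 RNA-seq libraries in the series, and they were assigned by their treatment label. The question was which genes lay on the same side of vehicle in both treated arms, with or without radiation. NB9464 is a MYCN-driven mouse neuroblastoma line, and its cells were placed under the skin of wild-type C57BL/6 mice per the study's methods. Treatment began at a tumor volume of 250 mm3. The R788 + anti-PDL1 arm received the Syk inhibitor prodrug R788 (fostamatinib; 50 mg/kg in the methods) and an antibody against PDL1 (clone 10F.9G2). The Rad + R788 + anti-PDL1 arm received in addition 1 exposure of 10 Gy, and its tumors are called irradiated replicates 1 to 3. Per the series text dosing ran from day 28 to day 37 in 4 doses, and the vehicle mice carried the same line. Mice were 4 to 6 weeks old when the cells were placed.

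All 9 tumors come from 1 cell line, and the day of harvest was not given in the sources used here. No arm had radiation alone, R788 alone or the antibody alone, so what both treated arms share cannot be divided among the agents. The labels name whole tumor as the tissue, while their extraction text speaks of cultured macrophages, so the source was checked against marker genes. Mycn, at 93.3 to 250 CPM in treated and 128 to 183 CPM in vehicle tumors, and Hand2, at 325 to 867 CPM over the 9, were read in every library. Of other genes that mark sympathetic neuroblasts, Th had 0 counts in all 9 libraries, and Dbh, Hand1 and Phox2a had 0 to 3. CPM here are counts scaled to a common library size, with edgeR's TMM factors applied.

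Total counts ranged from 18276683 to 23397886 per library, and 15931 genes passed the low-count filter. Irradiated replicate 1 stood apart from the rest. Its Pearson correlation with the other 8 libraries over genes was 0.865 to 0.907, against 0.937 to 0.980 among those 8, and its TMM factor was 0.743 against 0.975 to 1.12. Its 14 skeletal muscle markers summed to 798 CPM against 42.8 to 176 CPM elsewhere. Of these 14, 7 passed the filter. In that tumor Acta1 had 11 counts, Actn2 32, Myh1 3, and Myh2, Myh4, Mb and Pvalb 0. Other members thus carried the sum, and muscle content was not tested. Its 23 cytosolic ribosomal protein genes summed to 88031 CPM against 21659 to 34615. Calls that change without it are given beside the genes concerned.

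As background, Syk is a cytoplasmic tyrosine kinase that binds phosphorylated ITAM motifs behind Fc receptors and the B cell receptor, and it is found mainly in blood-derived cells. PDL1, encoded by Cd274, is the ligand through which tumor and myeloid cells engage PD-1 and so restrain T cells. In bulk tumor RNA a level reflects both how many cells of a type are present and how much RNA each holds, and these cannot be told apart here.

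In the pooled comparison 25 genes passed the edgeR quasi-likelihood F test at an adjusted p-value under 0.05, which is 0.157% of those tested. Of these, 18 were higher in the treated tumors (0.113%) and 7 were lower (0.0439%). The genes that rose included ligands, receptors and inhibitors of growth factor signalling (Nrg1, Mst1r, Spry1, Bmper, Hhip), the transcription factors Isl1, Helt and Zeb2, and the axon guidance gene Dpysl3. Those that fell were Gpr55, Arhgef10, Rasa3, Cyr61, Rtn4rl1, Mcoln1 and Sh3bp4. All 25 are protein coding. Each had the same sign in both arms and an unadjusted p-value under 0.05 in each arm. In none did any treated tumor reach into the vehicle range. The pooled test counts spread between the arms as spread within the treated group. It therefore favors genes whose arms agree, so agreement of the arms among the called genes is partly built into their selection. Adjusted p-values ran from 0.0226 to 0.0483, and log2 fold changes from -3.09 to -1.0 downward and from 1.48 to 4.81 upward, apart from Isl1, which had no vehicle counts. Whether reads were counted by strand is unknown, and 11 of the 25 (among them Gpr55, Nrg1, Arhgef10, Spry1, Zeb2, Hhip and Cd109) overlap another annotated gene, which leaves their counts uncertain. An unadjusted p-value under 0.05 was found for 1534 genes (9.63%), 938 higher and 596 lower (3.74%).

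**Figure D1:**
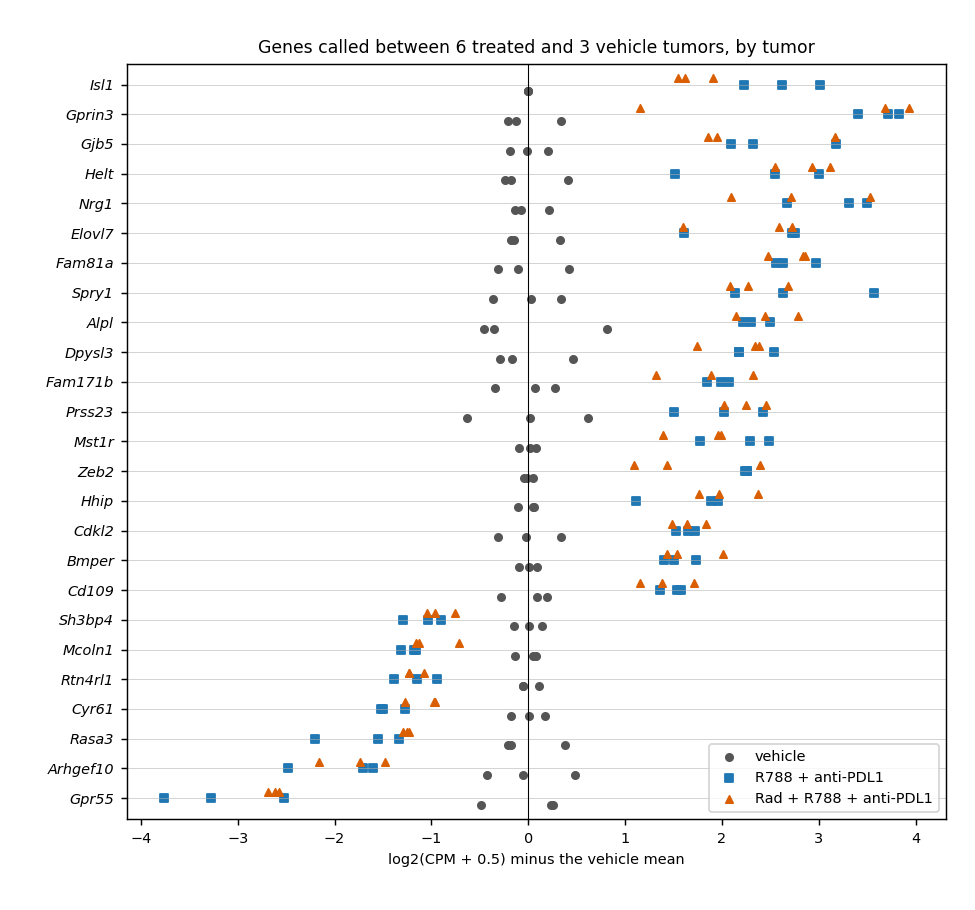
Level of each of the 25 called genes in each tumor, as log2(CPM + 0.5) minus the mean of the 3 vehicle tumors (x axis), with genes on the y axis in the order of their fitted log2 fold change. Circles are vehicle, squares R788 + anti-PDL1 and triangles Rad + R788 + anti-PDL1 tumors. For every gene the 6 treated points lie on 1 side of the 3 vehicle points.

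Across all genes tested, the 6 treated tumors lay wholly above the vehicle tumors at 521 genes (3.27%) and wholly below at 639 (4.01%), together 1160 (7.28%). An unadjusted p-value under 0.05 in both arms with the same sign was found for 637 genes (4%), 404 higher (2.54%) and 233 lower (1.46%), whereas 20 genes (0.126%) had opposite signs. The arms share the vehicle tumors, so a gene with unusual vehicle values is drawn the same way in both. An adjusted p-value under 0.05 in each arm separately was found for 6 genes (0.0377%), namely Fam81a, Dpysl3, Met, Cav1, Cav2 and Dio2. The R788 + anti-PDL1 arm alone had 108 calls (0.678%) and the irradiated arm alone had 7 (0.0439%). In the pooled comparison without irradiated replicate 1, edgeR called 161 genes higher (1.01%) and 122 lower (0.769%). With all libraries DESeq2 called 2.37% of genes higher and 0.923% lower, limma-voom 0.0188% and 0.00628%, and limma-voom with sample quality weights 5.67% and 5.92%.

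Fam81a (ENSMUSG00000032224.15, chromosome 9, 70088511 to 70142560) had the lowest p-value. Its vehicle tumors held 0.552, 1.26 and 0.712 CPM, the R788 + anti-PDL1 tumors 7.58, 7.19 and 9.75 CPM, and the irradiated tumors 9.00, 8.88 and 6.76 CPM. The treated tumors thus sat in a narrow band far above vehicle, and the arms overlapped. The log2 fold change was 3.27 ± 0.37 (SE; adjusted p = 0.0226), with 3.26 ± 0.39 in the arm without radiation and 3.27 ± 0.39 in the arm with it.

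Among the genes that rose, several act in growth factor signalling. Nrg1 (ENSMUSG00000062991.7, chromosome 8, 31814551 to 32884029) encodes neuregulin 1, a ligand of the ErbB3 and ErbB4 receptors. It was at 0.442, 0.404 and 0.658 CPM in vehicle tumors, at 5.86, 10.7 and 9.39 CPM with R788 + anti-PDL1, and at 6.05, 3.75 and 11.0 CPM with radiation added. The lowest treated tumor, irradiated replicate 2, still lay well above every vehicle tumor, and the log2 fold change was 3.95 ± 0.49 (adjusted p = 0.0335). Mst1r (ENSMUSG00000032584.12, chromosome 9, 107906873 to 107920383) encodes RON, the receptor for macrophage-stimulating protein and the closest relative of Met. It stood at 5.69, 5.43 and 4.99 CPM in vehicle tumors and at 14.9 to 32.4 CPM (median 22.5) in treated tumors, a log2 fold change of 2.12 ± 0.28 (adjusted p = 0.0454).

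Spry1 (ENSMUSG00000037211.12, chromosome 3, 37639947 to 37644598) encodes Sprouty 1, a feedback inhibitor of receptor tyrosine kinase signalling. Its vehicle values were 4.42, 2.51 and 3.45 CPM against 15.9 to 45.7 CPM (median 20.9), and it rose by 2.80 ± 0.42 (adjusted p = 0.0483). Hhip, a decoy receptor that binds hedgehog ligands, went from 3.62 to 4.13 CPM in vehicle to 9.10 to 22.6 CPM in treated tumors (2.01 ± 0.30). Bmper, which binds bone morphogenetic proteins outside the cell, went from 3.26 to 3.78 CPM in vehicle to 10.2 to 15.7 CPM (1.75 ± 0.25). Cd109, a surface protein that binds TGF-beta, was at 10.5 to 14.8 CPM against 29.4 to 43.2 CPM (1.48 ± 0.20). For each of these 4 genes the lowest treated tumor lay above the highest vehicle tumor.

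Isl1 (ENSMUSG00000042258.13, chromosome 13, 116298281 to 116309689) encodes a LIM homeodomain factor of sympathetic and sensory neuron development. It had 0 counts in all 3 vehicle tumors, and 80, 48 and 63 counts with R788 + anti-PDL1 against 14, 27 and 21 counts in the irradiated tumors. A count of 0 allows up to 3 counts per library, and against that floor the treated mean was at least 12.2-fold higher (adjusted p = 0.0483). Every R788 + anti-PDL1 tumor lay above every irradiated tumor, and Isl1 was the only one of the 25 genes with an unadjusted p-value under 0.05 for the difference between arms (log2 difference -1.23 ± 0.50; adjusted p = 0.256). Helt, a basic helix-loop-helix repressor of neural development, was at 0.135 to 0.497 CPM in vehicle and 1.64 to 5.97 CPM in treated tumors (log2 fold change 4.02 ± 0.63). Zeb2 (ENSMUSG00000026872.17, chromosome 2, 44983632 to 45117395), a zinc finger repressor of E-cadherin with roles in the neural crest, was at 9.39, 8.94 and 8.77 CPM in vehicle. It reached 45.1, 44.4 and 45.0 CPM with R788 + anti-PDL1 and 25.2, 19.7 and 49.5 CPM with radiation (2.08 ± 0.33; adjusted p = 0.0483). The first arm was almost uniform while irradiated replicates 1 and 2 lay lower.

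Dpysl3 (ENSMUSG00000024501.20, chromosome 18, 43320984 to 43438286) encodes a collapsin response mediator protein that acts on the growth cone cytoskeleton. It was at 14.9, 8.67 and 9.48 CPM in vehicle, at 50.4, 64.7 and 50.1 CPM with R788 + anti-PDL1, and at 37.0, 58.2 and 56.4 CPM with radiation. The log2 fold change was 2.26 ± 0.26 (adjusted p = 0.0226), and the arms differed by -0.12 ± 0.27. Gprin3, a G protein-regulated inducer of neurite outgrowth, was at 0.180 to 0.493 CPM in vehicle and at 7.83 to 11.5 CPM in 5 treated tumors, with irradiated replicate 1 at 1.25 CPM (4.81 ± 0.76). Its fitted change was among the largest, but the vehicle tumors held few counts. The remaining genes that rose were Gjb5 (4.24 ± 0.64), which encodes a connexin, the fatty acid elongase Elovl7 (3.73 ± 0.59), the phosphatase Alpl (2.37 ± 0.34), Fam171b (2.15 ± 0.33), the serine protease Prss23 (2.13 ± 0.34) and the kinase Cdkl2 (1.83 ± 0.29).

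Of the 7 genes that fell, Gpr55 (ENSMUSG00000049608.8, chromosome 1, 85938318 to 85961007) had the lowest fold change. It encodes a G protein-coupled receptor for lysophosphatidylinositol. Vehicle tumors held 16.5, 27.7 and 28.0 CPM, R788 + anti-PDL1 tumors 3.66, 1.26 and 1.97 CPM, and irradiated tumors 3.39, 3.50 and 3.20 CPM. All 6 treated values lay well under the lowest vehicle value, and the log2 fold change was -3.09 ± 0.35 (adjusted p = 0.0226). Regulators of small GTPases made up a further pair. Arhgef10 (ENSMUSG00000071176.10, chromosome 8, 14911663 to 15001085), a guanine nucleotide exchange factor, was at 355, 189 and 244 CPM in vehicle against 45.0 to 91.0 CPM (median 76.6), and changed by -1.88 ± 0.26 (adjusted p = 0.0467). Rasa3 (ENSMUSG00000031453.16, chromosome 8, 13566948 to 13677603), a GTPase-activating protein for Ras and Rap, was at 382, 254 and 259 CPM against 63.0 to 124 CPM (median 117; -1.47 ± 0.23).

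Mcoln1 (ENSMUSG00000004567.16, chromosome 8, 3500457 to 3515232) encodes mucolipin 1, the lysosomal calcium channel. It was at 237, 209 and 243 CPM in vehicle and at 103, 101 and 91.7 CPM with R788 + anti-PDL1, while the irradiated tumors held 140, 105 and 102 CPM. Irradiated replicate 1 was the highest treated tumor, and the log2 fold change was -1.10 ± 0.17 (adjusted p = 0.0483). Cyr61 (ENSMUSG00000028195.4, chromosome 3, 145646976 to 145649981), a matricellular protein and a standard target of the YAP coactivator, was at 35.5, 40.4 and 45.7 CPM in vehicle. It lay between 13.7 and 20.4 CPM in treated tumors, lower in each R788 + anti-PDL1 tumor than in 2 of the 3 irradiated ones (-1.27 ± 0.19; adjusted p = 0.0483). Rtn4rl1, of the Nogo receptor family, changed by -1.20 ± 0.18, and the endocytic adaptor gene Sh3bp4 by -1.0 ± 0.16.

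The promoters of called genes are shown to place the shared shift beside its regulatory sequence. RefSeq sequence upstream of the start site was held for 19 of the 25 called genes, 14 of those higher and 5 of those lower. In the 250 bases before the start, both strands were searched for 4 motifs, none of which overlaps another. The AP-1 letters TGANTCA stood in 0 of the 19 against 6.75% of 32851 promoters of the same length. The E-box letters CACGTG stood in 2 (10.5%), Mcoln1 and Gprin3, against 6.02%. The TEAD letters GGAATG stood in 3 (15.8%), Spry1, Cyr61 and Rasa3, against 12.6%. The TATA box letters TATAAA stood in 2 (10.5%), Gjb5 and Cyr61, against 12.4%. A match is a run of letters and not a site of binding. Printed below are the windows of the genes with the lowest adjusted p-values in each direction for which bases before both the RefSeq and the GENCODE start were held (build GRCm38.p6, 5' to 3' on the gene's strand). Capitals mark a match to a searched motif. The window of Mst1r was taken at chr9:107906639-107906872 on the plus strand, that of Gpr55 at chr1:85961056-85961305 on the minus strand, and that of Mcoln1 at chr8:3500269-3500456 on the plus strand.
Mst1r: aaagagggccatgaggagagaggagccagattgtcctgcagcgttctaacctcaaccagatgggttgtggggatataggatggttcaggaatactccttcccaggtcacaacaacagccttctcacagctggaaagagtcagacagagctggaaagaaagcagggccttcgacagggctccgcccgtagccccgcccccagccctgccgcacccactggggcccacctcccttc
Gpr55: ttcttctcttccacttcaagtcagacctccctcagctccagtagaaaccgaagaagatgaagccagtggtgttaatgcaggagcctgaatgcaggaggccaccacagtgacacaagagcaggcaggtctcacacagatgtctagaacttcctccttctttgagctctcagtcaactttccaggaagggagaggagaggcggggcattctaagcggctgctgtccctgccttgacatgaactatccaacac
Mcoln1: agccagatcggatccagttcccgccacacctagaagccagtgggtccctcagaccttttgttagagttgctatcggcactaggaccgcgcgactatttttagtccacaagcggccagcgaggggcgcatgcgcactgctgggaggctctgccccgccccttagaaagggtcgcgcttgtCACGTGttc

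In Mcoln1 the capitals are the E-box letters. The windows of Mst1r and Gpr55 held none of the 4 motifs.

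Met, Cav1, Cav2 and Dio2 passed the test in each arm separately but not when the arms were pooled. Cav2, Cav1 and Met lie close together on chromosome 6, with starts at 17281185, 17306335 and 17463800, so they are not findings from separate loci. What their shared position adds was not tested. Met, the hepatocyte growth factor receptor, was at 0.110, 0.359 and 0.822 CPM in vehicle, at 7.67, 2.18 and 6.31 CPM with R788 + anti-PDL1, and at 21.8, 32.1 and 30.0 CPM with radiation added. The groups formed 3 separate steps. Cav1, the main caveolar coat protein, was at 4.36 to 6.41 CPM, then 16.4 to 20.8 CPM, then 30.9 to 67.3 CPM. Its partner Cav2 was at 2.34 to 3.12, 9.57 to 12.9 and 18.5 to 32.2 CPM in the same order. Dio2, the deiodinase that activates thyroid hormone, was at 19.1 to 23.2, 44.4 to 76.1 and 91.8 to 155 CPM. Log2 fold changes in the arm without radiation were 3.63 ± 0.65 for Met, 1.82 ± 0.31 for Cav1, 1.99 ± 0.29 for Cav2 and 1.60 ± 0.27 for Dio2. With radiation they were 6.01 ± 0.70, 3.28 ± 0.32, 3.29 ± 0.30 and 2.65 ± 0.28. The adjusted p-values of the pooled test were 0.103, 0.0906, 0.0635 and 0.0733, and without irradiated replicate 1 they were 0.0475, 0.0380, 0.0287 and 0.0295, so that all 4 were called. None of the 4 passed the test of the arm difference after adjustment, for which 1 gene of all those tested was called (0.00628%). Each except Met shares its position with an antisense gene.

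**Figure D2:**
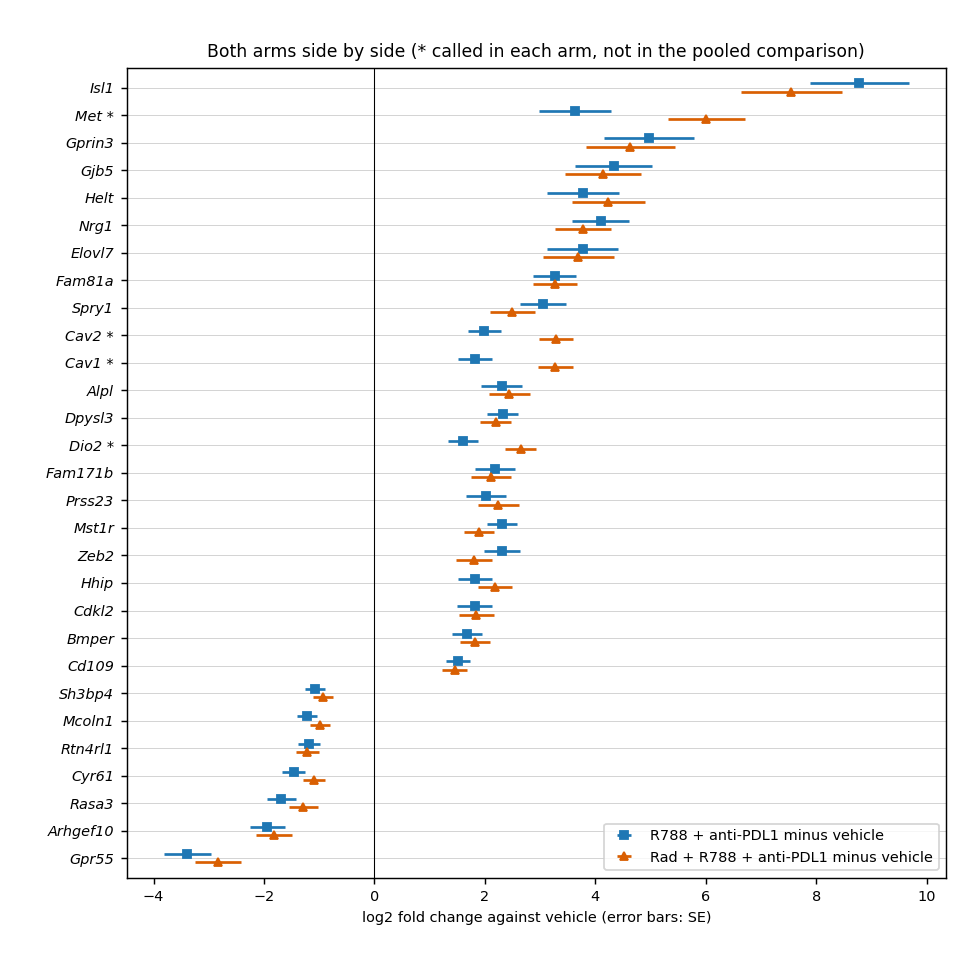
Log2 fold change against vehicle (x axis; error bars are SE, 3 tumors against 3 in a fit of all 9 libraries) for the 25 genes called in the pooled comparison and for Met, Cav1, Cav2 and Dio2, marked by an asterisk. Squares are R788 + anti-PDL1 and triangles Rad + R788 + anti-PDL1. The 2 arms lie within 1 log2 unit of each other for 24 of the 25 called genes, the exception being Isl1, and further apart for the 4 marked genes. The pooled test counts spread between the arms as spread within a group, which favors genes whose arms agree.

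Of 28 listed receptor tyrosine kinase genes 20 were tested, and their median log2 fold change was 0.45 against 0.05 over all genes. None was called by edgeR, whereas 6 had an unadjusted p-value under 0.05 upward (5.89% over all genes) and 3 downward (3.74%). DESeq2 called 2 and limma-voom 0. Without irradiated replicate 1 edgeR called 3 higher. Egfr, a receptor that pairs with the neuregulin receptors, was at 1.55, 2.42 and 0.712 CPM in vehicle, 13.5, 9.40 and 8.03 CPM with R788 + anti-PDL1 and 4.87, 17.8 and 9.96 CPM with radiation (2.75 ± 0.52; adjusted p = 0.0822). The groups did not overlap, and without irradiated replicate 1 Egfr was called (2.92 ± 0.44; adjusted p = 0.0189). Among 23 tested axon guidance genes the median was 0.37, Dpysl3 was called, and 7 had an unadjusted p-value under 0.05 upward and 0 downward. The share upward over all genes was 5.89%. DESeq2 called 5 members, limma-voom 1, and edgeR without irradiated replicate 1 called 4. Sema3e, a secreted semaphorin, had a log2 fold change of 2.57 ± 0.56 (adjusted p = 0.130), and the semaphorin receptor Nrp1 had 1.74 ± 0.43 (adjusted p = 0.188). Both were called without irradiated replicate 1 (adjusted p = 0.0333 and 0.0298).

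Other targets of YAP and TEAD were read beside Cyr61. Of 15 tested, 1 was called (0.157% over all genes), and the median was -0.26. An unadjusted p-value under 0.05 was found for 2 upward (5.89% over all genes) and 3 downward (3.74%). Nt5e, the ecto-nucleotidase CD73, was at 4.97, 3.05 and 2.85 CPM in vehicle, 27.2, 10.5 and 20.3 CPM with R788 + anti-PDL1 and 13.2, 15.3 and 12.5 CPM with radiation (2.19 ± 0.38; adjusted p = 0.0635, and 0.0223 without irradiated replicate 1). It thus lay on the other side of vehicle from Cyr61 in all 6 tumors. In the list of the caveolar coat and its partners, 10 were tested with a median of 0.19. An unadjusted p-value under 0.05 was found for 2 upward, Cav1 and Cav2 (5.89% over all genes). It was found for 2 downward, Ehd2 (-0.43) and Cavin1 (-0.41), against 3.74% over all genes.

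The 4 globin genes lay below every vehicle tumor in all 6 treated tumors, as did 4.01% of all genes. Hbb-bt was at 41.5, 10.0 and 15.8 CPM in vehicle, 2.65, 5.66 and 3.98 CPM with R788 + anti-PDL1 and 5.16, 2.23 and 2.51 CPM with radiation. Hbb-bs was at 241, 78.2 and 98.8 CPM against 22, 37.1 and 28.3 CPM and then 71.6, 20.9 and 17.5 CPM. The groups did not overlap for either, nor for Hba-a1 and Hba-a2, although vehicle replicate 1 was far above the other 2 vehicle tumors. Of the 5 erythroid genes tested, 4 had an unadjusted p-value under 0.05 downward in both arms (1.46% over all genes), with a median log2 fold change of -1.96. None was called in the pooled edgeR fit (Hbb-bt, -2.60 ± 0.45; adjusted p = 0.0635), none by limma-voom, 4 by DESeq2 and 4 by edgeR without irradiated replicate 1. The globin copies are near-identical and their counts may be split between them.

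Genes of antigen presentation by MHC class II had a median of 1.88 over 10 tested. In this list 7 genes had an unadjusted p-value under 0.05, all upward (5.89% over all genes), and 4 had no overlap with vehicle (3.27% over all genes). None was called by edgeR or limma-voom, and 4 were called by DESeq2. H2-Eb1, the beta chain of I-E, was at 14.1, 11.5 and 11.9 CPM in vehicle, 15.2, 78.8 and 38.2 CPM with R788 + anti-PDL1 and 53.7, 22.4 and 199 CPM with radiation (2.44 ± 0.77; adjusted p = 0.306). Cd74, the invariant chain, was at 51.5, 39.9 and 44.2 CPM, then 55.8, 304 and 121 CPM, then 170, 81.8 and 656 CPM (2.36 ± 0.75; adjusted p = 0.311). Vehicle tumors were nearly equal, while treated tumors spread over a wide range from just above vehicle to irradiated replicate 3, the highest.

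Macrophage markers were above 0 for 16 of 16 tested genes (median 1.02), of which 4 had an unadjusted p-value under 0.05 upward (5.89% over all genes). None was called by edgeR, with or without irradiated replicate 1, or by limma-voom, and 1 was called by DESeq2. Their sum was 357 to 738 CPM in vehicle and 402 to 2016 CPM in treated tumors, so the groups overlapped, and the value of 2016 CPM belonged to irradiated replicate 3. Csf1r, the receptor that macrophages need for survival, was at 30.3, 17.8 and 22.9 CPM in vehicle, 41.4, 78.3 and 49.7 CPM with R788 + anti-PDL1 and 39.6, 25.7 and 203 CPM with radiation (1.63 ± 0.63; adjusted p = 0.433). The macrophage and MHC class II sums were both highest in irradiated replicate 3, but they did not follow each other tumor by tumor. In the R788 + anti-PDL1 tumors macrophage markers were nearly level, at 794, 773 and 793 CPM. There the MHC class II genes summed to 184, 689 and 319 CPM. The part of macrophages in the MHC class II values was not tested.

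Lymphocyte genes were read at low counts. T cell markers had a median of 2.56, but only 6 of 15 passed the filter. A gene nearly absent from vehicle can pass that filter through its treated tumors alone. The median and the signs of these 6 are thus partly set by the filter and carry no support of their own. All 6 were above 0, and 3 had an unadjusted p-value under 0.05 upward (5.89% over all genes). None was called by edgeR or limma-voom and 2 were called by DESeq2. Their sum was 4.18 to 9.55 CPM in vehicle and 8.70 to 57.2 CPM in treated tumors, with irradiated replicate 1 lowest. Zap70, the Syk relative that acts at the T cell receptor, was at 0.110, 0.180 and 0.384 CPM in vehicle against 1.15, 1.64 and 0.943 CPM and 1.55, 1.67 and 2.42 CPM (2.77 ± 0.57; adjusted p = 0.106). Without irradiated replicate 1 it was the 1 T cell marker called by edgeR (adjusted p = 0.0453). Cytotoxic lymphocyte markers had a median of 1.54 over 9 genes, 5 of them with an unadjusted p-value under 0.05 upward against the same 5.89%, and 0 called by edgeR, DESeq2 or limma-voom. MHC class I genes had a median of 0.75 over 12 and the type I interferon response -0.12 over 18, with 8 of 18 above 0.

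**Figure D3:**
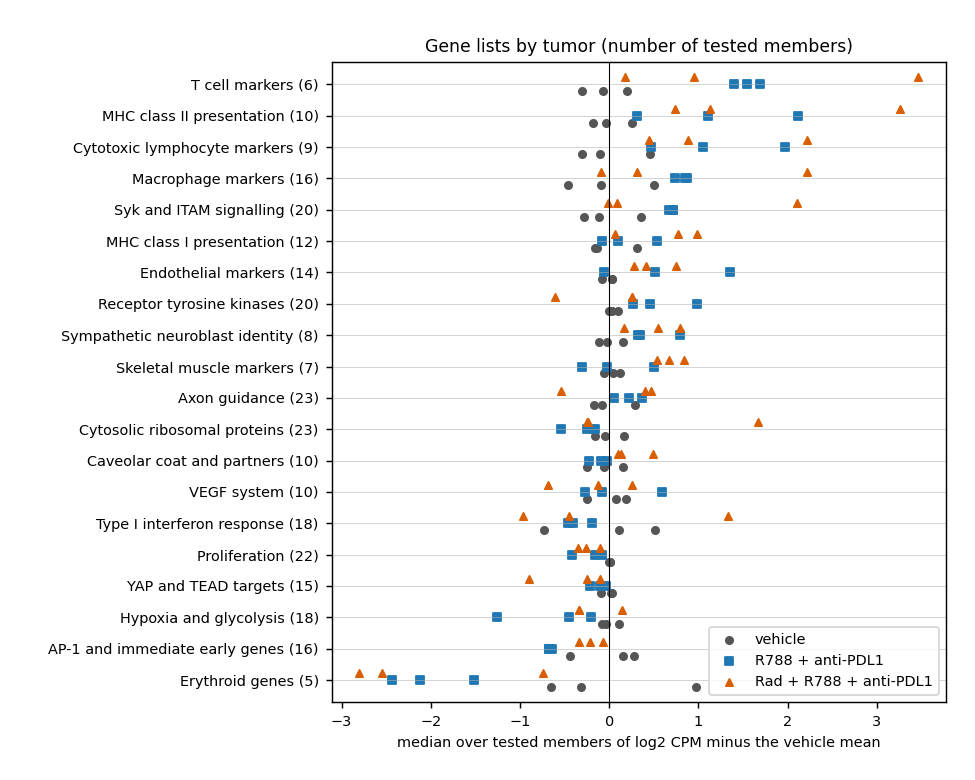
Median over the tested members of 20 gene lists in each tumor, as log2 CPM minus the vehicle mean (x axis), with the number of members in parentheses. Circles are vehicle, squares R788 + anti-PDL1 and triangles Rad + R788 + anti-PDL1 tumors. The erythroid list (median log2 fold change -1.96) lies to the left and the T cell and MHC class II lists (2.56 and 1.88) to the right, and for several immune lists 1 irradiated tumor lies far to the right of the rest. Of 15 T cell markers only the 6 that passed the low-count filter are shown, so their place is partly set by that filter.

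Syk, the target of R788, was at 19.3, 14.3 and 13 CPM in vehicle, 30.3, 24.8 and 31.4 CPM with R788 + anti-PDL1 and 15.3, 13.4 and 48.5 CPM with radiation. The first arm lay above vehicle while 2 of 3 irradiated tumors lay within its range. The difference of mean log2 CPM was 0.68 (exact two-sided permutation test, p = 0.143, smallest possible p = 0.0238). Over 20 tested genes of Syk and ITAM signalling the median was 1.0, 19 were above 0, 2 had an unadjusted p-value under 0.05, both upward (5.89% over all genes), and 0 were called by edgeR, DESeq2 or limma-voom. Cd274 was at 2.65, 6.60 and 4.44 CPM in vehicle and at 1.62 to 7.95 CPM in treated tumors, with a difference of -0.23 (exact two-sided permutation test, p = 0.690). The study's own panel of 20 genes comes from its heat map of these same tumors, so it is not independent of them. There the paper sets Rad + R788 + anti-PDL1 tumors against vehicle and R788 + anti-PDL1 tumors, a contrast unlike the pooled one. Of the panel 15 were tested and 0 called by edgeR. An unadjusted p-value under 0.05 was found for 2 upward (H2-Eb1 and Oas1a, against 5.89% over all genes) and 1 downward (3.74%). The last was Vegfb, a VEGF family ligand, at 67.5, 70.2 and 77.1 CPM in vehicle and 35.1 to 47.5 CPM in treated tumors (-0.78 ± 0.16; adjusted p = 0.102). Vegfb was called without irradiated replicate 1 (-0.77 ± 0.12; adjusted p = 0.0223). DESeq2 called 2 genes of this panel and limma-voom 0.

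Hypoxia and glycolysis genes had a median of -0.26 over 18, with 6 above 0. Among the 18, 3 had an unadjusted p-value under 0.05, all downward (3.74% over all genes), and 5 lay wholly below vehicle (4.01%). None was called by edgeR or limma-voom, and 1 by DESeq2. Adm, the vasoactive peptide adrenomedullin, was at 11.6, 22.2 and 19.5 CPM in vehicle, 9.44, 1.34 and 6.48 CPM with R788 + anti-PDL1 and 2.43, 1.47 and 2.92 CPM with radiation (-2.14 ± 0.58; adjusted p = 0.234). The VEGF system had a median of 0.09 over 10 genes, with 2 wholly below (4.01% over all genes) and 1 wholly above vehicle (3.27%). In this list DESeq2 called 2 genes lower and 1 higher. Endothelial markers were above 0 for 14 of 14 (median 0.69), of which 2 had an unadjusted p-value under 0.05, both upward (5.89% over all genes). AP-1 and immediate early genes had a median of -0.37 over 16, with an unadjusted p-value under 0.05 for 4 downward (3.74% over all genes), Ier3, Fosl2, Nr4a1 and Egr1, and for 2 upward (5.89%). The latter, Egr3 (2.20 ± 0.40; adjusted p = 0.0733) and Klf4 (1.33 ± 0.39; adjusted p = 0.257), were the 2 members wholly above vehicle (3.27%), and 0 lay wholly below. Egr3 was called without irradiated replicate 1 (adjusted p = 0.0177). Cell cycle genes of the proliferation list had a median of -0.18 over 22, with 3 above 0. In that list 1 had an unadjusted p-value under 0.05, downward (3.74% over all genes). Sympathetic neuroblast genes had a median of 0.42 over 8 tested, of which Isl1 was called, and skeletal muscle and ribosomal protein lists had 0.41 and 0.24 with 0 called by edgeR. Of the 52 lists examined, 49 held no gene called by edgeR.

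Sample quality weights in limma-voom, which gave 1847 calls over all genes, also gave calls in lists that had none by edgeR. Over all genes the shares were 5.67% higher and 5.92% lower. Lists with lower calls only included 5 erythroid genes, 7 hypoxia and glycolysis genes and 5 nuclear-encoded respiratory chain genes. Among them were also 2 of the IFN gamma induced GTPases and chemokines, 2 neutrophil markers, 2 TGF-beta system genes, 1 skeletal muscle gene and 1 ribosomal protein gene. Lists with higher calls only included 6 genes of Syk and ITAM signalling, 3 macrophage markers, 2 T cell markers, 2 MHC class II genes and 1 cytotoxic marker. They also included 4 integrins, 4 collagens, 2 fibroblast, 2 endothelial and 2 dendritic cell markers and 2 complement genes. Calls went both ways, as higher and lower, in further lists. Examples were 6 and 3 receptor tyrosine kinases, 2 and 7 AP-1 and immediate early genes, 1 and 5 sterol synthesis genes, and 1 and 4 suppressive macrophage genes. Without irradiated replicate 1 the list median went from 0.24 to -0.27 for cytosolic ribosomal proteins, from 0.75 to 0.35 for MHC class I, from -0.26 to -0.45 for hypoxia and glycolysis and from 0.41 to 0.19 for skeletal muscle, while the MHC class II median was 1.98 and the erythroid median -2.27.

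The lower genes were unevenly placed on the genome. Of the 7 that fell, Arhgef10, Rasa3 and Mcoln1 lie in the first 20 Mb of chromosome 8, and this region was singled out after its values were seen. It held 103 tested genes with a median log2 fold change of -0.87, being -1.25 without and -0.61 with radiation, and 83 of the 103 were below 0. Treated tumors lay wholly below vehicle at 35 of them (34.0%) and wholly above at 0, whereas they lay wholly below at 11 of 754 genes on the rest of the chromosome (1.46%) and at 3.93% of 14966 genes on other chromosomes. Of 231 bins of 10 Mb with at least 20 tested genes, the 2 lowest medians were those of this region, -0.92 and -0.85, and the third was -0.67, at the start of chromosome 18.

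Per tumor, the median over these 103 genes relative to vehicle was -0.82, -1.44 and -1.03 with R788 + anti-PDL1 and -0.51, -0.71 and -0.69 in the irradiated tumors, against 0.38, -0.28 and -0.09 in vehicle. Every treated tumor lay below every vehicle tumor, and the vehicle tumors were themselves spread. On the rest of chromosome 8 the median log2 fold change was 0.17 over 754 genes. An unadjusted p-value under 0.05 was found there for 59 upward (5.89% over all genes) and 4 downward (3.74%). Nrg1, Hhip and Helt, which rose, lie there. Lamp1, a major lysosomal membrane glycoprotein (chromosome 8, 13159161 to 13175338), was at 2999, 2171 and 2390 CPM in vehicle against 464 to 1098 CPM, a log2 fold change of -1.51 ± 0.27 (adjusted p = 0.0729), and it overlaps Grtp1 on the other strand. Tfdp1, the partner of E2F factors, had -1.29 ± 0.25 (adjusted p = 0.0810), the ubiquitin ligase scaffold Cul4a -1.29 ± 0.28 (adjusted p = 0.130), and the insulin receptor gene Insr -1.0 ± 0.32 (adjusted p = 0.309). Without irradiated replicate 1, Lamp1, Tfdp1 and Cul4a were called (adjusted p = 0.0228, 0.0265 and 0.0353). Without vehicle replicate 1, which had the highest level, the median of the region was -0.58.

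**Figure D4:**
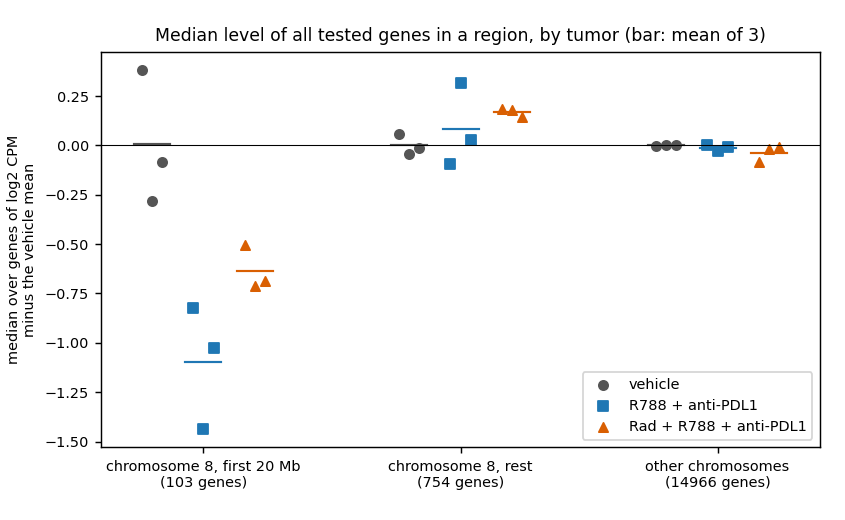
Median over all tested genes of log2 CPM minus the vehicle mean (y axis) in each tumor for the first 20 Mb of chromosome 8, the rest of that chromosome and all other chromosomes. Circles are vehicle, squares R788 + anti-PDL1, triangles Rad + R788 + anti-PDL1, and bars the mean of 3 tumors. In the first region the treated tumors lie between -0.51 and -1.44, below the 3 vehicle tumors, whereas on the rest of the chromosome they lie between -0.09 and 0.32 and on other chromosomes between -0.08 and 0.

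The number of called genes depended on single libraries. Without irradiated replicate 1 the edgeR fit called 283 genes (1.78% of 15874), and all 25 genes were among them. The common dispersion was 0.181 with that library and 0.0982 without it. No gene was called without irradiated replicate 2 or 3, R788 + anti-PDL1 replicate 1 or 3, or vehicle replicate 2 or 3, with 1480, 1256, 1513, 1232, 921 and 865 genes at an unadjusted p-value under 0.05 in that order. Without R788 + anti-PDL1 replicate 2 there were 11 calls, 9 of them among the 25, and without vehicle replicate 1 there were 12, of which 4 were. All 25 genes had the same sign in each of these fits. Of the 122 lower calls without irradiated replicate 1, 28 lay in the first 20 Mb of chromosome 8.

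**Figure D5:**
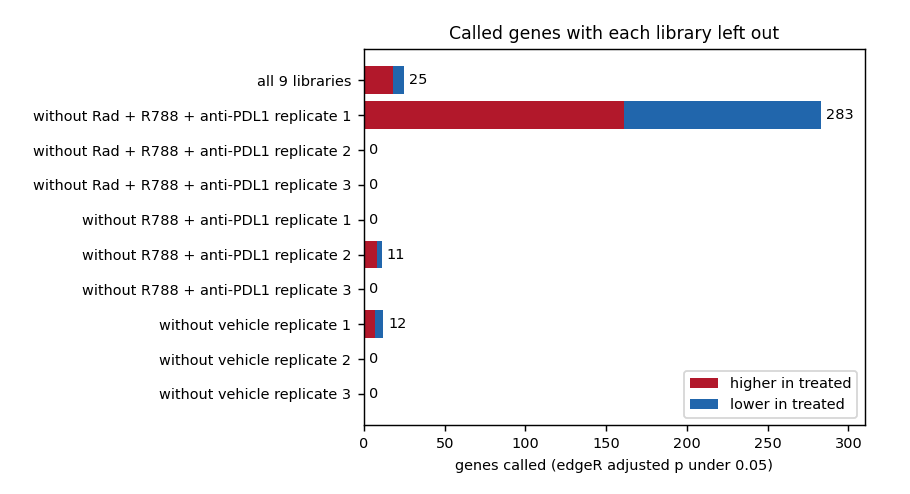
Number of genes called by edgeR between treated and vehicle tumors (x axis; adjusted p under 0.05) with all 9 libraries and with each left out in turn (y axis). Red is higher and blue lower in treated tumors, and the printed number is the total. The count was 25 with all libraries, 283 without irradiated replicate 1, and 0 to 12 without any 1 of the other 8.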

How the data were processed

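RNA-seq libraries of 9 tumors were compared, grouped by their treatment labels. Per the study's methods and the submitters' processing notes, STAR 2.6.1d (mouse build mm10) and Salmon 1.4.0 were used by the authors. What they deposited were estimated counts, as whole numbers and without normalization, for 54429 gene symbols, and these were used as they stand. How transcripts were summed to genes and the strandedness were not given in the sources used here. The labels give a paired-end and the methods a single-read run.

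Genes were kept by filterByExpr (minimum count 10), scaled by TMM and tested by the quasi-likelihood F test of edgeR 4.0.16 (robust setting, R 4.3.3), treated minus vehicle, with Benjamini-Hochberg adjustment over all 15931 genes. Each arm and the arm difference came from a 3-group fit. SE were derived from the F statistic. Syk and Cd274 were compared by exact permutation of the 9 labels on log2(CPM + 0.5). Symbols were matched to GENCODE M21, and promoters came from RefSeq (GRCm38.p6). The naming rule took called genes without overlap between groups and with mean counts of 50 or more (10 highest, 10 lowest and 5 lowest p-values per direction), genes called in each arm, Syk, Cd274, the study's panel and called list members. All other called genes are also given, and list members that were not called were named after their values were seen. The comparison, the members and the 52 gene lists were chosen with earlier results of these data known. Alternatives were DESeq2 1.42.0, limma-voom (limma 3.58.1) with and without quality weights, RLE and upper-quartile scaling, other filters, a replicate block and leaving out each library. The fitting code was tested on simulated counts.

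Samples were taken as separate tumors. Where that is not stated, p-values measure the spread between these samples only. Floors of 3 counts (0.115 to 0.221 CPM) cover counting error only. No sequencing batch was given in the labels. Some marker genes are not reported here.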

Additional observations from a re-analysis of the deposited data

Results flagged for a closer look

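Among the 6 treated tumors, 10 of 69 genes, regions and lists had 1 tumor far from the other 5, by Dixon's critical value for the gap to the nearest tumor over the whole range. Chance flags about 1 in 20 groups. For 6 of the 10 that tumor was irradiated replicate 1, and the ratio of gap to range was 0.811 for Gprin3 (lowest), 0.683 for Mcoln1 (highest), 0.698 for Batf3 (highest), 0.751 for the targets of YAP and TEAD (lowest), 0.831 for cytosolic ribosomal proteins (highest) and 0.637 for the median of all genes outside chromosome 8 (lowest, at -0.08). Irradiated replicate 3 was highest for Syk and ITAM signalling (0.653) and the type I interferon response (0.663). R788 + anti-PDL1 replicate 2 was lowest for Helt (0.647) and Rasa3 (0.670). The cause was not tested.

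Cxcl10 lay below the vehicle mean in all 3 R788 + anti-PDL1 tumors and above it in all 3 irradiated tumors, with a difference between arms of 1.0 in mean log2(CPM + 0.5). The vehicle range overlapped both arms, and the edgeR test of the arm difference gave 1.19 ± 0.54 (adjusted p = 0.276).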

How the results depend on the processing

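The 25 called genes kept their direction in all 17 or 18 alternatives in which each could be tested, and were called in 4 to 11 of them, with adjusted p-values up to 0.357. The number of calls (higher, lower) was 517 (372, 145) with DESeq2, 4 (3, 1) with limma-voom, 1847 (904, 943) with voom quality weights, 7 (5, 2) with RLE scaling, 24 with upper-quartile scaling, 43 (29, 14) with no low-count filter, 15 (10, 5) with at least 10 counts in every library and 54 (37, 17) as the mean of both arms in the 3-group fit. DESeq2 without irradiated replicate 1, chosen after seeing the data, gave 1384. The cause of these differences was not tested. Leaving out 1 library gave 0 to 283 calls, 0 to 161 higher and 0 to 122 lower, 375 to 1235 genes shifted the same way in both arms, 1216 to 2702 genes without overlap, and a median of -0.98 to -0.58 for the start of chromosome 8.

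Whether replicate numbers pair the samples could not be settled, and the main fit took them as unpaired. Of 9 same-numbered pairs 2 had a correlation over 0.1, and 5 of 9 libraries correlated best with their own number. Correlations ran from -0.046 to 0.233 for same-numbered pairs and from -0.225 to 0.123 for the others. With the replicate block, edgeR called 0 genes (0 higher, 0 lower; 1307 at an unadjusted p-value under 0.05), and 585 were shifted the same way in both arms.

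The sign changed for 4 uncalled genes. Batf3 (0.52) had -0.027 with limma-voom, -0.30 with quality weights and -0.30 to 0.69 without 1 library. Mx1 (0.53) had -0.53 with limma-voom, -0.13 with the block and -0.65 to 0.97 without 1 library. Cxcl10 (0.18) had -0.38 with quality weights and -0.21 to 0.55 without 1 library. Cd274 had -0.46 to 0.20 by the fit and -0.52 to 0.052 as a difference of mean log2 CPM. With 3 vehicle tumors the exact test cannot go below p = 0.0238.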

Other observations

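Only 20 genes had an unadjusted p-value under 0.05 in both arms with opposite signs, and these were picked out after their values were seen. Among them the difference between arms (irradiated minus not) was -2.67 ± 0.35 on the log2 scale for Add2, which encodes the membrane skeleton protein beta-adducin, 2.37 ± 0.32 for Cyb561, which encodes an electron carrier of secretory vesicles, and 4.31 ± 0.69 for Lcn2, the iron-siderophore binding lipocalin 2. The adjusted p-values of the first 2 were 0.109 and that of Lcn2 was 0.133, so none passed the threshold. Across all genes 1 was called for the difference between arms, and 2926 (18.4%) had an unadjusted p-value under 0.05.

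The 11 keratinocyte markers summed to 17.4 to 18.7 CPM in vehicle, 7.05 to 74.1 CPM with R788 + anti-PDL1 and 57.6 to 105 CPM in irradiated tumors. Members did not move together, and the 5 that passed the filter had a median log2 fold change of 0.14. Krt14 went the other way, with 4, 41 and 43 counts in vehicle and 0, 2 and 0 in irradiated tumors. Krt1, Krt10, Krt15, Dsg3 and Lor had 0 to 4 counts in irradiated tumors. Whether adjoining skin was present was not tested. Fibroblast markers summed to 3181 to 3954 CPM in vehicle and 2662 to 5726 CPM in treated tumors.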
